A study of Nasonia vitripennis with 70 samples.

Results

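Nasonia vitripennis is a small parasitoid wasp in which unfertilised eggs become haploid males and fertilised eggs become diploid females. Heads of these natural sexes were compared within WGDL, a neo-polyploid laboratory line that also holds triploid females and diploid males. The comparison takes 9 haploid male heads (5 of generation F5 and 4 of F15) and 8 diploid female heads (4 of F2 and 4 of F14), 17 of the 70 poly-A RNA libraries of the series, chosen by the generation, ploidy, sex and tissue in the library names. All animals were taken 1 day after emergence, and all 4 groups carry the WGDL background. F5 males against F2 females are called early below, and F15 males against F14 females late. The early and late comparisons share no library. Sex, ploidy and generation number differ together in each of them, so their parts in a difference cannot be told apart. Diploid male heads (5 of F5 and 4 of F15) are given as levels only, because they carry the females' ploidy with the other sex.

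In Nasonia, females make an active Transformer splicing factor, which directs the female splice forms of doublesex and fruitless, and males lack it. Doublesex and fruitless encode transcription factors known in insects for shaping sexually dimorphic tissues and the neurons of courtship. The antennae sit on the head and carry the odorant receptor neurons with which males find mates and females find hosts. Gene-level counts add all splice forms together, so they give the amount of a transcript and not which form it is.

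In units of 1e6 counts, libraries held 16.0 to 21.5 in F5 males, 14.3 to 17.2 in F15 males, 18.3 to 24.6 in F2 females and 16.3 to 23.1 in F14 females. The long-wavelength opsin Lop1 stood at 1087 CPM (counts scaled to 1e6 per library) or more in every one of the 17 libraries, while of the germ-line markers nanos stood at 0.201 CPM or less and oskar at 2.38 to 7.36 CPM. The 4 F15 male libraries did not resemble each other. On the leading principal component, which held 33.5% of the variance, C81 and C82 lay at -74.2 and -85.7, C83 at -32.5 and C84 at -0.10, while F5 males lay between -9.13 and -3.34 and females between 17.1 and 36.4. Library codes alone tell replicates apart. Nothing in the labels says whether a library is 1 animal or a pool, or whether libraries come from separate animals, so p-values measure the spread between these libraries, which may be technical. All values below are CPM scaled to the effective library size. Within each group they are listed by library code: C51, C52, C53, C54 and C55B for F5 males, C81 to C84 for F15 males, C21, C22, C23 and C25 for F2 females, and C71 to C74 for F14 females. Log2 differences are males over females with their standard error (SE), every adjusted p is from edgeR's quasi-likelihood test, and a gene is called at an adjusted p under 0.05.

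All 3 sex determination genes measured were lower in male than in female heads, early and late. Transformer (Tra), the female splicing switch, stood at 148, 144, 104, 75.6 and 146 CPM in F5 males and 39.7, 45.8, 56.5 and 70.3 CPM in F15 males. In females Tra stood at 287, 292, 362 and 347 CPM (F2) and 479, 491, 630 and 519 CPM (F14). Every female head was above every male head, and the late gap was the wider one, with F15 males lowest and F14 females highest. The log2 difference was -1.38 (SE 0.27, adjusted p = 0.00059) early and -3.32 (SE 0.31, adjusted p = 1.7e-08) late, and the late minus early difference of -1.94 was itself called (adjusted p = 0.0038), though not without C81 and C82 (adjusted p = 0.0501).

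Fruitless (Fru), a transcription factor known in Drosophila for male courtship circuits, was at 75.7, 110, 80.4, 57.2 and 82.9 CPM in F5 males and 89.6, 45.5, 90.4 and 81.4 CPM in F15 males. Female heads held 270, 190, 213 and 153 CPM (F2) and 302, 250, 275 and 298 CPM (F14). The sexes did not overlap, with a log2 difference of -1.35 (SE 0.30, adjusted p = 0.0018) early and -1.87 (SE 0.32, adjusted p = 0.00021) late.

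Doublesex (Dsx), the transcription factor at the end of the cascade, had the smallest gap of these genes. It was at 144, 173, 124, 111 and 190 CPM in F5 males and 122, 86.8, 146 and 133 CPM in F15 males, against 218, 201, 205 and 233 CPM in F2 females and 244, 229, 251 and 230 CPM in F14 females. The male libraries all lay below the female ones, by a log2 difference of -0.53 (SE 0.17, adjusted p = 0.026) early and -0.97 (SE 0.18, adjusted p = 0.00041) late. The early call was lost when any one of C51, C53, C54, C21 or C25 was left out. In abdomens the direction of Dsx was opposite: male abdomens held 464, 500, 556, 612 and 599 CPM (F5) and 288, 249, 300 and 377 CPM (F15), and female abdomens 156, 258, 203 and 57.4 CPM (F2) and 47.9, 48.4, 73.9 and 54 CPM (F14). That abdominal difference was 2.07 on the log2 scale (SE 0.37, adjusted p = 9e-06), while Tra and Fru were lower in male abdomens too (-0.85 and -0.37, adjusted p = 0.00068 and 0.048). Diploid male heads held 39.5 to 118 CPM of Tra, 44.9 to 168 CPM of Fru and 102 to 199 CPM of Dsx.

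**Figure D1:**
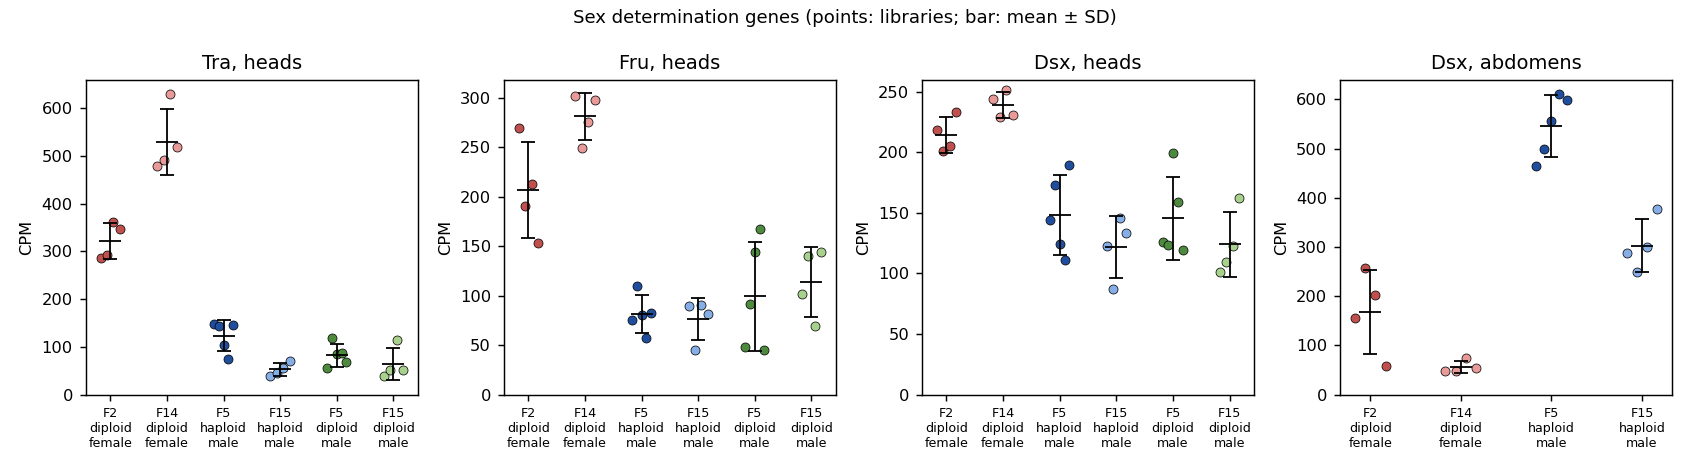
CPM of Tra, Fru and Dsx in heads of 6 groups and of Dsx in abdomens of 4 groups; points are libraries, and bars are mean ± SD. Haploid male heads lie below all female heads for the 3 genes, and for Dsx the order of the sexes is turned round in abdomens.

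Over all 11785 genes tested in heads, 2086 were higher in males (17.7%) and 1738 higher in females (14.7%) when both generations were pooled. Early, 1068 genes were higher in males (9.06%) and 1088 in females (9.23%); late, 1753 (14.9%) and 1057 (8.97%). The test of the late minus early difference itself put 678 genes further towards males late (5.75%) and 392 further towards females (3.33%). The counts depended on single libraries: 1359 genes were called early without C21, and 1476 late without C82, where all libraries gave 2156 and 2810. Leaving out C81 or C84 moved the late minus early count of 1070 to 611 or 1614. Without C81 and C82 together, 555 genes were called late. On TPM, whose median over all genes moved to -0.26 from 0.02, 682 genes were higher in males and 4082 in females.

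Of the early calls, 286 male-higher genes (2.43% of all tested) were also male-higher late, which is 26.8% of the early and 16.3% of the late list. The female-higher counterpart was 276 genes (2.34%), or 25.4% of the early and 26.1% of the late list. Without C21 these counts were 182 and 160, and without C81 and C82 they were 143 and 76. In 55 further genes both calls were made in opposite directions. Those were 21 that were male-higher early and female-higher late, and 34 the other way. Without regard to calls, all 9 male heads exceeded all 8 female heads in 177 genes (1.5%), and all female heads exceeded all male heads in 207 (1.76%).

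**Figure D2:**
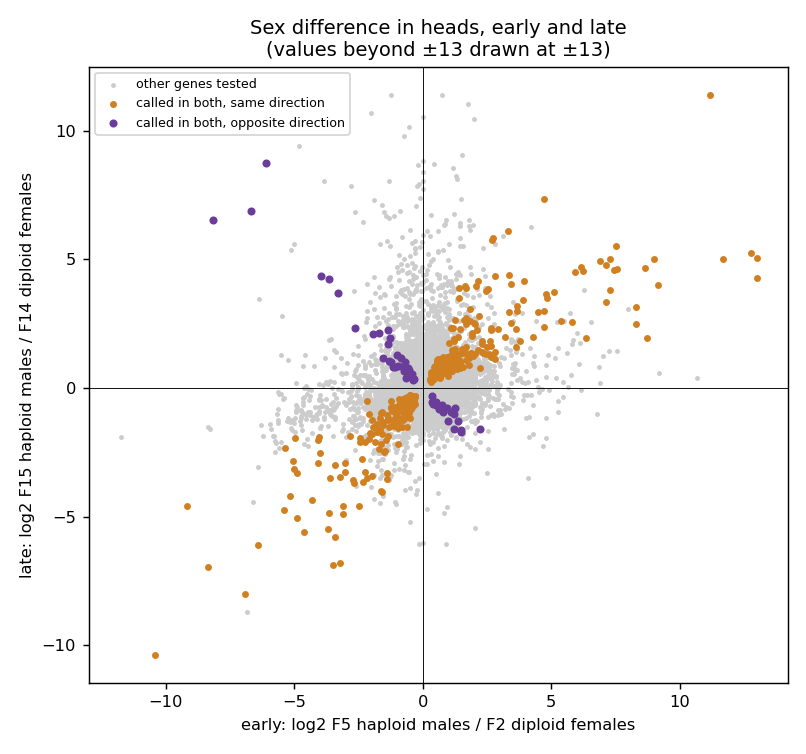
Log2 male over female difference early (x axis) and late (y axis) for each of the 11785 genes tested. Orange marks the 562 genes called in both with the same direction and purple the 55 called in both with opposite directions.

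The widest female-higher gap was at LOC100122102, which the files and the reference table do not describe. It was at 1.12, 0.425, 1.15, 3.07 and 1.10 CPM in F5 males and 0.335, 3.04, 1.03 and 5.17 CPM in F15 males, against 1677, 1886, 926 and 3006 CPM in F2 females and 2235, 3319, 2647 and 4601 CPM in F14 females. Every female head exceeded every male head more than 100-fold. The log2 difference was -10.40 early (SE 0.85, adjusted p = 7.5e-10) and -10.37 late (SE 0.94, adjusted p = 1.2e-08), and diploid male heads lay at 0.560 to 6.26 CPM.

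LOC100114046, the next gene along the chromosome in the reference order, showed the same direction at a lower level. It was at 4.01 to 6.71 CPM in F5 males and 1.34 to 5.22 CPM in F15 males. Female heads held 79.5, 91.9, 93.3 and 173 CPM (F2) and 56.7, 109, 61.2 and 88.3 CPM (F14), with log2 differences of -4.32 (SE 0.35) early and -4.36 (SE 0.39) late and no overlap. Both neighbours were female-higher in abdomens as well (log2 -2.87 and -3.70, adjusted p = 5.1e-05 and 2.9e-08).

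A further 3 undescribed genes were low in male heads. LOC100379126 was at 0 to 0.186 CPM in F5 males and 2.68, 1.84, 0.451 and 0.109 CPM in F15 males, against 22.5 to 44 CPM in F2 and 23.8 to 39.7 CPM in F14 females. LOC100680373 did not exceed 1.32 CPM in any male head, against 6.40, 2.09, 1.94 and 13.9 CPM in F2 and 28, 30.6, 39.1 and 53.9 CPM in F14 females. LOC100120850 did not exceed 0.274 CPM in males, against 0.684 to 2.23 CPM in F2 and 6.14 to 13.5 CPM in F14 females. Each was called early and late, without overlap of the sexes, and LOC100680373 was not called early without C25 (adjusted p = 0.059).

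Among male-higher genes with a name that were called early and late, without overlap and at a mean of 5 CPM or more in a group, 3 cytochrome P450 enzymes, oxidases of small lipophilic molecules, had the widest differences. CYP9AG7 was at 5893, 4825, 1436, 5229 and 9882 CPM in F5 males and 215, 460, 2054 and 1506 CPM in F15 males. No F2 female library held a count, and F14 females held 126, 0.116, 0.261 and 1.10 CPM, the high one being C71. Early, F5 males were at least 35235-fold higher than a floor of 3 counts per library in F2 females; late, the log2 difference was 5.05 (SE 1.40, adjusted p = 0.011). In diploid male heads CYP9AG7 ranged from 273 to 12200 CPM, and in abdomens no library of the 4 groups exceeded 2.28 CPM.

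Another pair of P450 genes had lower levels and the same split. CYP6CK8 stood at 39.3, 39.6, 17.6, 36.3 and 44.8 CPM in F5 males, 5.96, 19.0, 18 and 9.74 CPM in F15 males, and 0.844 CPM or less in all female heads (log2 7.29 early, SE 0.92, and 5.0 late, SE 0.83). CYP6CK11 stood at 11.7 to 15.7 CPM in F5 males, 2.94 to 9.27 CPM in F15 males and 0.362 CPM or less in females. The sexes did not overlap for either gene. In abdomens they parted: CYP6CK8 was again male-higher (log2 7.50, adjusted p = 5.9e-12), and CYP6CK11 was female-higher (log2 -1.85, adjusted p = 0.001). Of the 41 P450 genes tested, 11 were male-higher and 7 female-higher over both generations, beside backgrounds of 17.7% and 14.7%. On TPM the counts were 6 and 12, beside 682 and 4082 of all 11785 genes. Without C25 the female-higher count was 4, beside 1718 of 12027 genes over all. The median log2 difference of the P450 genes was 0.29 on counts and -0.07 on TPM, beside the all-gene medians of 0.02 and -0.26. CYP4AB18 was the most female-higher of them, at 0 to 0.479 CPM in males and 0.362 to 1.43 CPM in females (log2 -3.46, SE 0.49, adjusted p = 8.3e-06), with C82 above the lowest female.

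**Figure D3:**
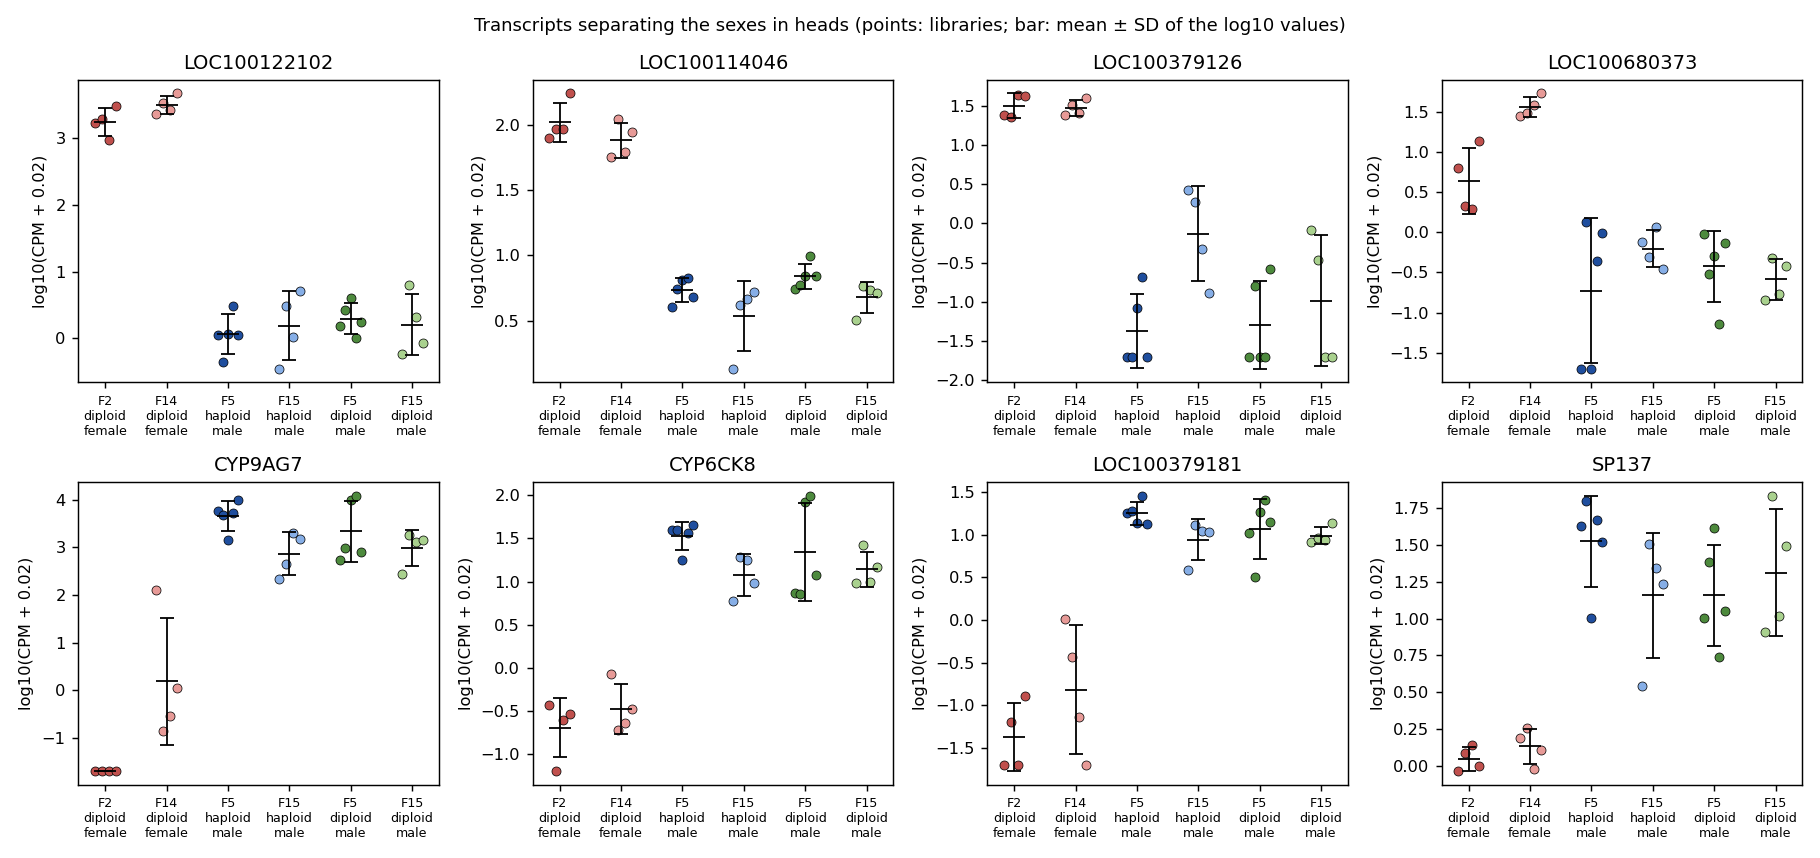
Log10 of CPM plus a small constant for 8 genes in heads, with points for libraries and bars for mean ± SD of the log values. The top row is female-higher and the bottom row male-higher, diploid males lie with haploid males, and the highest F14 female point of CYP9AG7, at 126 CPM, is C71.

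The 5 LOC genes with the widest male-higher gap were also without a description. LOC103316980 was at 274, 238, 98.4, 151 and 203 CPM in F5 males and 11.2, 43.4, 63 and 60.9 CPM in F15 males. F2 females held 0.114 CPM or less and F14 females 4.70, 0.116, 0.209 and 0.105 CPM. LOC100123365 was at 296 to 1287 CPM in F5 and 38 to 308 CPM in F15 males, against 0.228 CPM or less in F2 females and 14.7, 0.174, 0.157 and 0.525 CPM in F14 females. In both genes the sexes were apart and C71 was the highest female library.

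LOC100678345 and LOC100379181 are next to each other in the reference order. The first was at 63.2 to 130 CPM in F5 males, 22.5 to 95.6 CPM in F15 males and 4.82 CPM or less in females, and the second at 13.4 to 28.5, 3.81 to 13 and 1.00 CPM or less. Both had their highest female value in C71. In abdomens LOC100379181 had a log2 difference of 11.21 (SE 0.74, adjusted p = 3.4e-14). LOC103315799 varied most, from 0.708 to 1048 CPM in F5 males and from 11.5 to 811 CPM in F15 males, with 0.222 CPM or less in females.

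C71 stood out over a wider group. Among the 26 genes that were at least 8-fold male-higher, called early and late, without overlap and at 5 CPM or more in a group, C71 was the highest of the 4 F14 females in 19. Their summed level without CPR48 was 246 CPM in C71, 46.6 to 66.3 CPM in the other F14 females and 1549 to 13081 CPM in males. Its cause was not tested.

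Cuticle genes had mostly male-higher calls. Cuticle proteins bind chitin and form the exoskeleton, and they are made in bulk around the moult to the adult. Over both generations 17 of the 36 tested were male-higher, beside a background of 17.7%. By edgeR, by DESeq2 and at an unadjusted p under 0.05, 0 were female-higher. Early 4 were male-higher and 2 female-higher, shares near the backgrounds of 9.06% and 9.23%. Late the counts were 25 and 1, beside backgrounds of 14.9% and 8.97%. The median log2 difference was 0.46 early and 2.37 late.

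CPR48, a chitin-binding cuticle protein, was at 20839, 40693, 53239, 19078 and 5780 CPM in F5 males and 17823, 23429, 8734 and 5634 CPM in F15 males. Females held 1882, 2843, 2986 and 3324 CPM (F2) and 242, 327, 103 and 138 CPM (F14). No female reached the lowest male, but the early call was narrow (log2 3.34, SE 1.20, adjusted p = 0.049) and was lost under 19 of 23 alternatives; the late difference was 6.10 (SE 1.39, adjusted p = 0.0024). In diploid male heads CPR48 ran from 131 to 31996 CPM.

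CPR35, of the same family, was at 232, 200, 198, 162 and 287 CPM in F5 males and 176, 178, 126 and 88.8 CPM in F15 males, against 51.8 to 72.1 CPM in F2 and 21.3 to 30.3 CPM in F14 females. Cpap3-e, a cuticle protein with domains like those of gut lining proteins, was at 7.78 to 22.8 CPM in males of F5, 14.9 to 20.9 CPM in those of F15, and 2.29 to 5.78 CPM in females. Neither gene's sexes overlapped. Their log2 differences were 1.71 and 1.91 early and 2.48 and 2.02 late, and both were male-higher in abdomens too (5.20 and 4.39).

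Apidermins, cuticle proteins known from Hymenoptera, differed between early and late. apd-3 was at 5.25, 12.4, 40.1, 7.22 and 2.83 CPM in F5 males and 1010, 1212, 654 and 825 CPM in F2 females, and so was female-higher early (log2 -6.10, SE 1.63, adjusted p = 0.0088). Late it was male-higher (log2 8.74, SE 2.01, adjusted p = 0.0026), with 45861, 24508, 7719 and 75.6 CPM in F15 males and 62.1, 80.8, 18.5 and 21.2 CPM in F14 females. The F15 males thus spanned 75.6 to 45861 CPM, with C81 highest and C84 within the female range. apd-1, 2 genes away in the reference order, was at 5513, 6241, 1295 and 1.69 CPM in F15 males and at 0.940 to 26.4 CPM in all females. CPR53 was likewise lowest in C84, at 350, 334, 102 and 2.61 CPM in F15 males, and CPR20 was at 45, 104, 9.67 and 1.52 CPM. The late minus early difference was called for apd-3, apd-1 and CPR53, and lost for CPR53 without C81 and C82.

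Summed over the list, cuticle transcripts reached 73916 and 60621 CPM in C81 and C82, 19543 in C83 and 6702 in C84. F5 males lay at 7053 to 55236 CPM, F2 females at 3729 to 5130 and F14 females at 849 to 1185. In males most of the cuticle sum came from CPR48 and, in C81 to C83, also from apd-3, whose levels are given above. Among F15 males the muscle gene list moved with the cuticle sum. Its 3 genes summed to 5959 and 7760 CPM in C81 and C82, 1934 in C83 and 926 in C84, against 726 to 1115 CPM in F14 females. Early the muscle sums of the sexes overlapped, at 638 to 2955 CPM in F5 males and 1719 to 2250 CPM in F2 females. Among F5 males C53 was highest and C55B lowest for both lists, and the order of C51, C52 and C54 differed. Without C81 and C82, 10 of 36 cuticle genes were male-higher late, beside 411 of 12292 genes over all. The part of muscle or of epidermis in the cuticle result was not tested. In bulk heads, fewer cells of a type and less RNA per cell cannot be told apart.

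**Figure D4:**
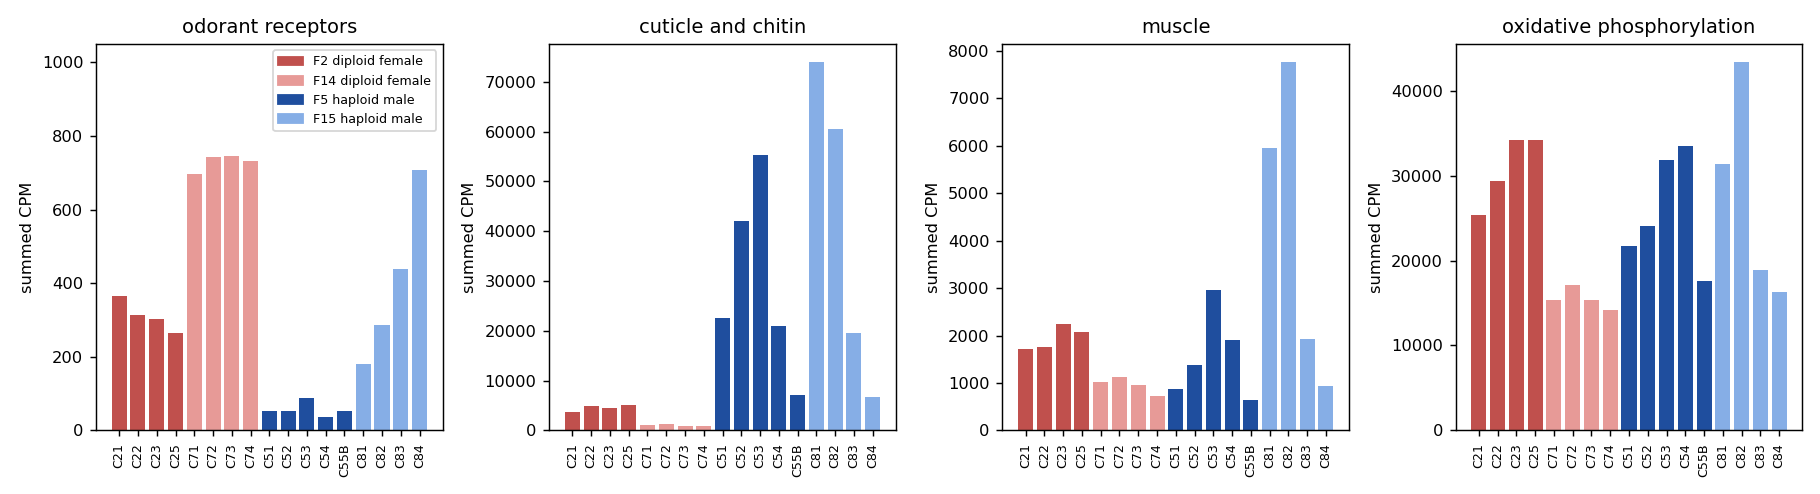
Summed CPM of 4 gene lists in each of the 17 head libraries (bars, coloured by group). Among F15 males, C81 and C82 are highest for cuticle (73916 and 60621 CPM) and muscle and lowest for odorant receptors, and C84 is the reverse.

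Odorant receptors were lower in male heads early, and less of the family passed late. Of 214 receptor genes 162 were tested, and over both generations 117 were female-higher and 4 male-higher. Early the counts were 110 and 2 and late 28 and 2, beside backgrounds of 9.23% and 9.06% early and 8.97% and 14.9% late. The median log2 difference was -2.76 early (-2.50 with groups at 0 set to their bound) and -1.07 late, and in the test of the difference 27 receptors had moved towards males late and 1 towards females. Without C81 and C82, 9 of 179 tested receptors were female-higher late, beside 144 of 12292 genes over all. Without C81 alone 17 receptors were, beside 696 of 12034 genes over all. On TPM 108 were female-higher late, beside 4192 of all 11785 genes.

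The co-receptor Or1, with which the other receptors pair, followed the family. It was at 2.83, 5.52, 21.2, 3.03 and 1.65 CPM in F5 males, 62.6, 105, 211 and 367 CPM in F15 males, 161, 145, 144 and 108 CPM in F2 females and 329, 361, 377 and 363 CPM in F14 females. F5 males were below all females (log2 -4.37, SE 0.88, adjusted p = 0.00082), while in F15 males C84 lay within the female range and the late difference was not called (log2 -0.94, SE 0.83, adjusted p = 0.43). Diploid male heads held 20.0 to 463 CPM. The summed family reached 708 CPM in C84 and 696 to 746 CPM in F14 females, and 180, 286 and 439 CPM in C81, C82 and C83. Or1 is itself in that sum and was a large part of it in C84 and in F14 females.

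A smaller set of receptors was female-higher at both times, 23 of the 162 tested, beside 2.34% of all genes. In 11 of the 23 the sexes did not overlap, a share near that over all genes (136 of the 276 female-higher at both times). Or201 had no count in any of the 9 male heads, which allows up to 3 counts in each. Females held 1.16, 0.445, 1.31 and 0.381 CPM (F2) and 1.61, 1.80, 1.67 and 1.89 CPM (F14), at least 5.24-fold above that floor early and 8.74-fold late. Or203 had a count in C84 alone among males (0.0544 CPM), with 0.285 to 0.856 CPM in F2 and 1.21 to 1.88 CPM in F14 females. Or191 and Or222 were at or under 0.160 CPM in every male and at 0.171 to 1.78 CPM in females. These 4 had the widest called differences of the family over both generations. In C84, whose summed receptor level was that of the females, they were at 0, 0.0544, 0 and 0 CPM. C84 was among the males by which these 4, and all 23, were chosen, so the choice itself favoured low values there. Over all 23 receptors C84 was below every female head in 12 and at or above the lowest female head in 11, among them Or275 (4.79 CPM against a lowest female of 2.58) and Or35 (3.86 against 1.54).

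The 4 male-higher receptors, named after their values were seen, were Or195, Or296, Or92 and Or93. Or195 had means of 0.0686 and 2.08 CPM in F5 and F15 males and 0.0669 and 0.114 CPM in F2 and F14 females, and it was called late (adjusted p = 0.0021) but not early (0.99). Or296, at means of 9.72 and 5.39 CPM in males and 1.92 and 4.73 CPM in females, was called early (adjusted p = 1.2e-05) but not late (0.70). For none of the 162 receptors did all 9 male heads exceed all 8 female heads.

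Carboxylesterases, hydrolases of esters, had 6 of 11 tested genes female-higher over both generations, beside a background of 14.7%. By edgeR, by DESeq2 and at an unadjusted p under 0.05, 0 were male-higher. Their median log2 differences were -0.87 early and -0.97 late. CCE-A3 was at 32.2, 22.5, 23, 17 and 21.8 CPM in F5 males, 14.4, 23.9, 64 and 80.3 CPM in F15 males, 77 to 102 CPM in F2 and 140 to 187 CPM in F14 females. C84, at 80.3 CPM, lay above the lowest F2 female, so the pooled sexes overlapped (log2 -1.89, SE 0.35, adjusted p = 0.00018). CCE-B6 was at 0.425 to 33 CPM in F5 males and 50.9, 171, 328 and 466 CPM in F15 males against 148 to 202 and 428 to 580 CPM in females. It was called early, but not when any one of C51, C52, C54 or C55B was left out, and not late. Late, 5 carboxylesterases were female-higher, beside a background of 8.97%, and 3 of 12 tested without C82, beside 481 of 11978 genes over all. Without C81 and C82, 0 of 13 tested were female-higher late by edgeR, 3 of them at an unadjusted p under 0.05. Over all genes 144 of 12292 were then female-higher by edgeR.

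Glutathione S-transferases, which conjugate glutathione to reactive compounds, had calls in both directions. GstD5 was at 1.12, 1.70, 4.01, 1.12 and 0.868 CPM in F5 males, 19.8 to 46.3 CPM in F15 males, 33.9 to 58 CPM in F2 and 53.6 to 63.2 CPM in F14 females. It was female-higher early (log2 -4.72, SE 0.60, adjusted p = 3.4e-06), and the late minus early difference was called (3.85, adjusted p = 0.0043). GstD3, of the same class and next to GstD2 in the reference order, showed the same order, at 3.21 to 12.9, 20.5 to 68.2, 60.7 to 90.5 and 114 to 130 CPM. GstT2 went the other way, at 315 to 487 CPM in F5 males and 76.8, 205, 331 and 361 CPM in F15 males against 77 to 121 CPM in females. C81 lay at the female level, and the late call was lost when C83, C84, C71 or C73 was left out. Over both generations 3 of 16 were male-higher and 4 female-higher, beside backgrounds of 17.7% and 14.7%. On TPM the counts were 1 and 8, beside 682 and 4082 of all 11785 genes.

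Serine proteases, enzymes of digestion and of immune and coagulation cascades, had 12 of 32 tested genes male-higher and 2 female-higher over both generations, beside backgrounds of 17.7% and 14.7%. On TPM the counts were 5 and 5, beside 682 and 4082 of all 11785 genes. Without C81 and C82 they were 7 and 1, beside 1230 and 1065 of 12292 genes. SP137 was at 42.1, 62.8, 10.1, 46.8 and 33.1 CPM in F5 males and 3.48, 32.1, 22 and 17 CPM in F15 males, with 1.80 CPM or less in all female heads. The sexes were apart, with log2 differences of 5.12 (SE 0.71) early and 3.75 (SE 0.68) late. SP22 stood at 39 to 111 and 53.7 to 82 CPM in males against 18.1 to 28.2 CPM in females (log2 1.63, SE 0.24, adjusted p = 1.3e-05). SP132, at 0.177 to 1.84 CPM in males, reached at most 0.0803 CPM in females. SP7 had no count in F2 females, and its F5 male mean was at least 1.97-fold above the floor; the early call was lost under 15 of 23 alternatives.

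SP37 was at 30.8, 31, 7.09 and 0.218 CPM in F15 males and 0.766 CPM or less in F5 males and all females, so its late call rested on C81, C82 and C83, and it was lost without C81 and C82 (adjusted p = 0.060). SP76 was at 47 CPM in C83 and 0.326 CPM or less in the other F15 males, against 1.56 to 22.2 CPM in F2 females; its late minus early difference was not called without C83 (adjusted p = 0.31). SP100 was lower in F15 males (0 to 0.490 CPM) than in F14 females (5.26 to 6.66 CPM), log2 -4.62 (SE 0.90, adjusted p = 0.00065). Serine protease homologs, relatives without catalytic activity, were male-higher in 2 of 5 tested genes over both generations, beside a background of 17.7%. These were SPH103 at 2.10 to 17.9 CPM against 0.222 to 2.41 CPM, with a slight overlap, and SPH21 at 133 to 290 CPM against 71.5 to 125 CPM. The median of the 5 homologs was 0.98, and -0.18 with groups at 0 set to their bound.

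The yellow family, known in Drosophila for pigment and behaviour, had 5 of 8 tested genes male-higher over both generations, beside a background of 17.7%. On TPM 2 were male-higher, beside 682 of all 11785 genes. By edgeR, by DESeq2 and at an unadjusted p under 0.05, 0 were female-higher. Y-b was at 59.1, 52.6, 29, 46.9 and 45.6 CPM in F5 males and 155, 146, 74.2 and 42.4 CPM in F15 males, against 20.8 to 27 CPM in females, without overlap, and was called late (log2 2.24, adjusted p = 0.00015) but not early (adjusted p = 0.050). Y-h, Y-e3 and Y-f were male-higher over both generations, at means of 6.67, 9.50 and 96.3 CPM in males and 2.83, 4.62 and 54.9 CPM in females. Y-x1c was the remaining member. The list held 4 late calls, all male-higher, beside a background of 14.9%. Without C81 and C82 it held 1, beside 411 of 12292 genes over all. Mrjpl8 and Mrjpl3, related royal jelly-like proteins, were male-higher late and early respectively (log2 3.51 and 2.51).

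Genes of respiration and translation had male-higher calls late and none early. Of 63 oxidative phosphorylation genes, which build the mitochondrial respiratory complexes, 23 were male-higher late, beside a background of 14.9%. That count depended on single libraries. It was 0 without C82, 6 without C81, C71 or C73, 10 without C72, 4 without C74 and 47 without C84. Over all genes, 995 of 11978 were male-higher late without C82, 1274 of 12034 without C81 and 1974 of 12022 without C84. Without C71, C72, C73 or C74 they were 1268 of 11927, 1321 of 12037, 1259 of 12013 and 1224 of 12016. On TPM the respiration count was 1, beside 563 of all 11785 genes. Early, edgeR called 0 in either direction, with 1 male-higher and 3 female-higher at an unadjusted p under 0.05 and 1 each way by DESeq2. On TPM 11 of the 63 were female-higher early, beside 1067 of all 11785 genes. Over both generations 5 of the 63 were male-higher, beside a background of 17.7%. Female-higher were 0, by edgeR, by DESeq2 and at an unadjusted p under 0.05. On TPM those counts were 1 and 6, beside 682 and 4082 of all genes. The median log2 difference of the list was -0.23 early and 0.80 late. Ndufab1, a complex I subunit, was at 368, 505, 209 and 183 CPM in F15 males and 127, 140, 126 and 127 CPM in F14 females (log2 1.28, SE 0.33, adjusted p = 0.0062), while the early values overlapped at 241 to 440 and 238 to 350 CPM. Ndufa4, Ndufs7 and Ndufv1 were called late with log2 differences of 0.95, 0.76 and 0.44. Without C81 and C82, 0 of 64 were male-higher late by edgeR, beside 411 of 12292 genes over all. Of the 64, 2 were male-higher at an unadjusted p under 0.05. In the summed list C82 stood at 43366 CPM, C81 at 31433, C83 at 18895 and C84 at 16323, beside 14190 to 17137 CPM in F14 females.

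Of 15 ribosome and translation genes 7 were male-higher late and 0 early by edgeR, by DESeq2 and at an unadjusted p under 0.05, beside a late background of 14.9%. The late count was 1 without C82, 3 without C81, 4 without C71, C72 or C73, 11 without C84, and 1 without both C81 and C82. Over all genes, 995 of 11978 were male-higher late without C82, 1274 of 12034 without C81 and 1974 of 12022 without C84. Without C71, C72 or C73 they were 1268 of 11927, 1321 of 12037 and 1259 of 12013, and without both C81 and C82 411 of 12292. On TPM the translation count was 1, beside 563 of all 11785 genes. Rpl7a, a large-subunit ribosomal protein, was at 571, 686, 286 and 216 CPM in F15 males and 199 to 234 CPM in F14 females. Rpl6 and mRpL12 had the same order of libraries. eIF-2beta, which takes part in starting translation, was at 107 to 170 CPM in F15 males and 64.4 to 73.8 CPM in F14 females without overlap (log2 0.93, SE 0.15, adjusted p = 0.0001). On TPM the medians of both lists over both generations were -0.07 and -0.04, beside -0.26 for all genes.

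Of 20 ion channel and synapse genes 4 were female-higher over both generations, a share near the background of 14.7%, and 0 male-higher by edgeR, by DESeq2 and at an unadjusted p under 0.05. On TPM 11 were female-higher, beside 4082 of all 11785 genes. Dop2, a dopamine receptor, was at 21, 19.7, 23.3, 29.9 and 22.9 CPM in F5 males and 18, 20.6, 20.0 and 17.8 CPM in F15 males, against 32.1, 33.2, 35.6 and 37.3 CPM in F2 and 39.2, 37.4, 39.3 and 42.9 CPM in F14 females. The sexes did not overlap (log2 -0.57 early, SE 0.17, adjusted p = 0.020, and -1.05 late, SE 0.18, adjusted p = 0.00024). The early call was lost without C51, C52 or C25. GRD, Syt1 and pHCl, a GABA-like receptor subunit, a vesicle calcium sensor and a chloride channel, had both-generation differences of -0.74, -0.59 and -0.43.

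Lobe, known in Drosophila for eye growth, was at 34 to 43.9 CPM in F5 and 17.3 to 45 CPM in F15 males, with 48.8 to 58.7 CPM in females, and its early call was lost in 9 of 23 alternatives. Lop1 was at 1087 to 4649 CPM in males and 3138 to 8725 CPM in females and was not called (log2 -0.55, SE 0.31, adjusted p = 0.18). white, an eye pigment transporter, was at 9.50, 6.47, 3.09 and 1.47 CPM in F15 males and 0.0803 to 0.209 CPM in F14 females, against 4.05 to 4.47 CPM in F2 females; its late difference was 5.13 (SE 0.74, adjusted p = 5.5e-05).

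Among hormone genes 3 of 8 tested were male-higher and 1 female-higher early, beside backgrounds of 9.06% and 9.23%. Without C55B the male-higher count was 1, beside 780 of 11771 genes over all. Late, edgeR and DESeq2 called 0 hormone genes in either direction, with 3 male-higher and 1 female-higher at an unadjusted p under 0.05. Akhr, the receptor for the fat-mobilising adipokinetic hormone, was at 50.1, 48.4, 23.8, 33.8 and 46.9 CPM in F5 males and 7.50, 8.36, 12.8 and 11.3 CPM in F2 females (log2 2.03, SE 0.28, adjusted p = 9.3e-06). Late it was at 20.3 to 35.7 and 18.5 to 21.4 CPM and was not called, and the late minus early difference was called (-1.42, adjusted p = 0.020), though not without C81. ACP, a related peptide, was male-higher early (log2 1.16, adjusted p = 0.010), though not without C55B. Among the other lists, Imd and serpin5, an adaptor of the immune deficiency pathway and a protease inhibitor, were male-higher late (0.75 and 1.32), as was Lsd2, a lipid droplet protein (1.13), and Hex70b, a storage protein, early (1.94). The call for Imd was lost without C82 and on TPM, that for Lsd2 on TPM, and that for Hex70b in 8 of 23 alternatives, among them leaving out any one of C51, C52, C55B, C21, C22 or C23. Pdf, the clock neuropeptide, did not pass at either time (log2 0.32 and -0.31), nor did nAChRa8 (0.28 and -0.20).

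Among named genes with a mean of 5 CPM or more in some group, CYP9P4 and NV_30145 followed CYP9AG7 and SP100 in how far their difference moved towards females late. CYP9P4 was at 37.5 to 45.6 CPM in F5 and 5.15, 14.8, 24.6 and 48.3 CPM in F15 males, and 14.7 to 27.6 and 51.5 to 93 CPM in females; its late minus early call was lost in 14 of 23 alternatives. NV_30145 was at 9.92 to 27.5 and 1.87 to 5.11 CPM in males and 5.54 to 9.21 and 4.93 to 7.43 CPM in females.

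**Figure D5:**
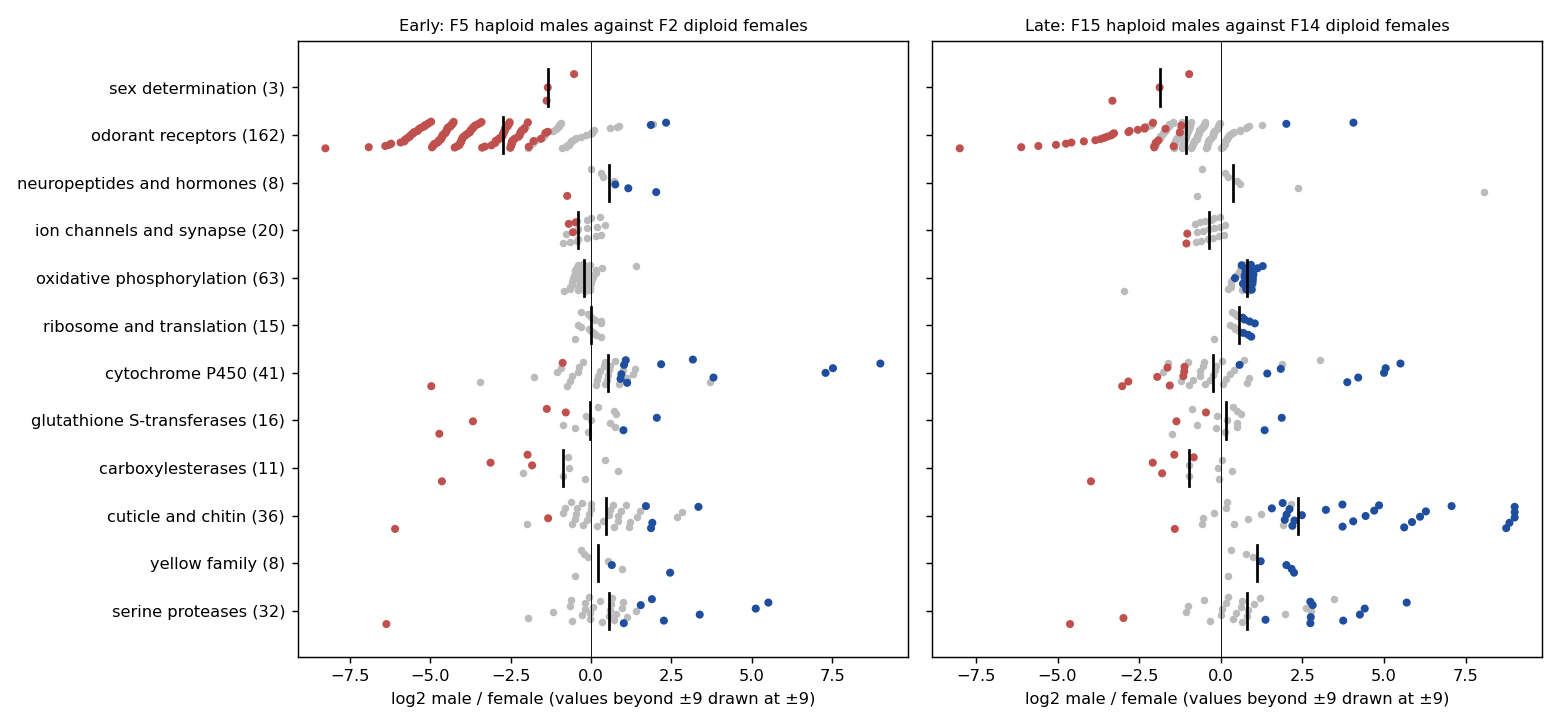
Log2 male over female difference of every tested member of 12 gene lists, early (left) and late (right); blue and red points passed an adjusted p of 0.05, grey points did not, and bars are list medians. The bar of odorant receptors lies at -2.76 early and -1.07 late, and that of cuticle genes at 0.46 and 2.37.

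Abdomens of the same groups gave a second tissue. There 6205 of 12308 genes were male-higher (50.4%) and 4314 female-higher (35.1%). Of the 285 tested genes that were male-higher in heads early and late, 183 (64.2%) were male-higher and 49 (17.2%) female-higher in abdomens. Of the 259 tested female-higher head genes, 101 (39%) were male-higher and 108 (41.7%) female-higher in abdomens.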

How the data were processed

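The authors deposited RSEM expected counts for 14621 genes and TPM for 14613, made with STAR 2.7.11a and RSEM 1.3.1 per the submitters' processing notes; no build or strand setting is named there. For testing, counts were rounded, as 18.2% of values were not whole. RSEM shares ambiguous reads between paralogues, which leaves single odorant receptors, P450s and proteases uncertain.

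The 35 head libraries (8 groups) were fitted in edgeR 4.0.16 under R 4.3.3 (TMM, filterByExpr, quasi-likelihood F test, 11785 genes, 27 residual degrees of freedom), with contrasts over the 17 libraries. Abdomens had a fit of their own (12308 genes). Benjamini-Hochberg adjustment covered all genes of a contrast, and the SE is the log2 difference over the square root of F. Replicates differed by more than counting noise, so each counted once. The tests were tried on simulated counts first. Floors of 3 counts cover counting error only.

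Alternatives were DESeq2 1.42.0, RLE factors, no filter, the 17 libraries alone, limma 3.58.1 on log2(TPM + 1) of the authors' TPM, a 2-fold minimum, each library left out and, added after seeing the data, C81 and C82 left out together.

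Genes were named as those with the widest difference among genes called early and late, without overlap and averaging 5 CPM or more in some group (up to 8 with a name and 5 LOC genes per direction), and as the widest late minus early differences (up to 4). Up to 4 called members per list and the sex determination and marker genes were added. Members and lists were chosen with earlier results of these data known, and list patterns were completed from the symbols in the files. Which 8 lists are given by counts or markers alone (gustatory receptors, odorant-binding proteins, eye, clock, muscle, germ line, cell cycle, dynein) was decided after values were seen. Of these, gustatory receptors, odorant-binding proteins, germ line, cell cycle and dynein genes had 1, 0, 0, 2 and 1 male-higher and 0, 1, 1, 1 and 1 female-higher members over both generations. Gene names and neighbours, but no coordinates, come from the RefSeq table of Nvit_psr_1.1, which held all 14621 symbols.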

Additional observations from a re-analysis of the deposited data

Results flagged for a closer look

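For the 79 genes described, 314 sets of libraries of 1 gene and 1 group were tested for a library far from the rest, and 32 had one; chance flags about 1 in 20. C53 among F5 males was highest for CYP6CK11 (15.7 CPM), LOC103315799 (1048), apd-3 (40.1), GstD5 (4.01), GstD3 (12.9), CCE-B6 (33), CPR20 (53.4) and Or1 (21.2).

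C71 among F14 females was highest for CYP9AG7 (126 CPM), LOC100123365 (14.7), LOC103316980 (4.70), LOC100678345 (4.82), CPR20 (1.29) and SP132 (0.0803), and lowest for serpin5 (188).

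Single libraries stood apart elsewhere. In F15 males these were SP22 (82 CPM), SP132 (1.84) and Or222 (0.160) in C82, SP76 (47) in C83, Or191 (0.0669) in C81, and Or203 (0.0544) and oskar (7.29) in C84. In F5 males they were LOC100122102 (3.07) and, as the lowest, Lop1 (1750) in C54, and Or191 (0.0472) and nanos (0.0472) in C52. Among females they were CPR35 (51.8, the lowest) and nanos (0.201) in C21, Y-e3 (7.47) in C22, GRD (118, the lowest) in C23, LOC100114046 (173) in C25 and Ndufab1 (140) in C72.

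The sex difference itself differed between late and early, by edgeR's test of that difference, for 21 genes described. Towards males late these were apd-3 (14.84 on the log2 scale), apd-1 (12.68), SP76 (9.83), CPR53 (7.53), SP37 (5.72), white (5.62), LOC100379126 (4.56), GstD5 (3.85), Mrjpl8 (3.15), Y-e3 (2.50) and eIF-2beta (0.92). Towards females late they were CYP9AG7 (-14.55, a fitted value with F2 females at 0 and so no bound), LOC100123365 (-7.53), LOC103316980 (-6.68), SP100 (-5.57), LOC100379181 (-4.00), LOC100678345 (-3.97), CYP9P4 (-2.49), NV_30145 (-2.27), Tra (-1.94) and Akhr (-1.42). Without C71 the calls for LOC100123365, LOC103316980, LOC100678345 and LOC100379181 were lost.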

How the results depend on the processing

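All libraries gave 3824 calls over both generations, 2156 early, 2810 late and 1070 late minus early, with 286 male-higher and 276 female-higher genes called early and late. A 2-fold minimum left 1181 calls over both generations, 1048 early and 1150 late, with 125 and 79 called early and late. Limma on TPM gave 4755 late (563 male-higher, 4192 female-higher), 640 late minus early (233 towards males, 407 towards females), and 61 and 636 called early and late. On TPM the split was 682 to 4082 over both generations and 414 to 1067 early, where counts gave 2086 to 1738 and 1068 to 1088. The 17 libraries alone gave 1608 late minus early and 437 male-higher genes called early and late. Without C81 and C82 there were 2295 calls over both generations, 555 late (411 male-higher, 144 female-higher), 257 late minus early, and 143 and 76 called early and late. Leaving out each library in turn gave 2977 to 4087 calls over both generations, 1359 to 2474 early, 1476 to 3361 late and 611 to 1614 late minus early. It gave 182 to 345 male-higher and 160 to 319 female-higher genes called early and late. The late minus early count moved by over 1.5 times without C81, C82, C84, C73, C74 or C22. The cause was not tested. Ndufv1 late turned to -0.10 on TPM (adjusted p = 0.68). Of the calls for genes described, 47 of 70 over both generations, 33 of 49 early, 35 of 61 late and 6 of 21 late minus early passed under every alternative. No paired analysis was possible because no 2 groups share a library code. Few counts stand behind the receptors Or201, Or203, Or191 and Or222, which reached at most 1.89 CPM in any of the 17 heads.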

Other observations

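CYP4G43 and CYP4G44, named here after their values were seen, were male-higher late (log2 4.21 and 3.87) with a late minus early difference of 4.06 and 3.59; insect CYP4G enzymes are known for making cuticular hydrocarbons. CYP314A1, known in Drosophila as the enzyme that activates ecdysone, was female-higher early (log2 -0.88).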
